A study of Mus musculus with 367 samples.

Results

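The genes described here are 9 imprinted genes with roles in growth: H19, Mest, Peg3, Ndn, Cdkn1c, Plagl1, Dlk1, Grb10 and Meg3. They were taken by name, and all 9 were found among the 50600 gene identifiers of the single-cell matrices by their GENCODE symbols. Their values were read in tdTomato-high cells of Sm22-Cre;tdTomato mice (mixed background) at days 12, 15 and 21 after a full-thickness excision of dorsal skin. No unwounded or Cre-negative cells are among these samples, so the comparisons are between days and between kinds of cell. Sm22-Cre places Cre under the promoter of Tagln, a smooth muscle gene, and tdTomato stays on in every cell in which Cre was ever active and in its descendants. The label therefore does not name a single cell type. The labels give an age of 3 to 8 weeks at wounding and 2 to 3 wound tissues per time point. They do not say whether the captures of a day came from different mice, so the p-values below measure the spread between captures, which may be technical.

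An imprinted gene is read mainly from 1 parental copy, and DNA methylation set in the egg or sperm distinguishes the copies. Many imprinted genes act on fetal growth. In textbook accounts those expressed from the paternal copy often favour growth and several from the maternal copy restrain it, and most fall in level after birth. H19, Cdkn1c, Grb10 and Meg3 are maternally expressed in most tissues, and Mest, Peg3, Ndn, Plagl1 and Dlk1 are paternally expressed. The assay does not tell the parental copies apart, so all values below are sums over both.

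Cells were captured on a C1 microfluidic chip in 7 runs, called captures: 3 at day 12, 2 at day 15 and 2 at day 21. Of 367 cells, 292 passed the limits on depth, detected genes and mitochondrial RNA, and these held 171664 to 7961278 estimated fragments each. The unit is FPKM, which corrects for the length of a transcript and the depth of the cell, so levels can be set side by side between genes. Kept cells were sorted into kinds by 3 genes that are not members. Matrix cells had Col1a1 at 1000 FPKM or more, with Rgs5 under 100 and Tyrobp under 50, and numbered 198. Mural cells had Rgs5 at 500 or more with Tyrobp under 50 and numbered 57. Myeloid cells had Tyrobp at 500 or more and numbered 26, and 11 cells met no definition. The matrix cells of the 7 captures numbered 31, 26 and 17 at day 12, 50 and 22 at day 15, and 18 and 34 at day 21.

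The kinds were checked against longer marker lists. The list of each kind includes the gene that sorted it (Col1a1, Rgs5 or Tyrobp), so this check was partly set in advance. All 10 matrix fibroblast markers were detected in most matrix cells, 8 of 9 mural markers in most mural cells and 10 of 10 myeloid markers in most myeloid cells. The summed mural markers stood at 8670 to 10800 FPKM in mural cells and at no more than 65 in matrix cells. Of the 5 T cell markers, 4 (Cd3e, Cd3g, Icos and Nkg7) were at 0 in all 3 kinds. Lists of other cell types were not all as low. The summed endothelial and keratinocyte markers reached at most 38.6 and 17.1 FPKM in any kind. The adipocyte markers reached 172 FPKM in mural and 197 FPKM in myeloid cells. The Schwann markers reached 149 FPKM in mural and 122 FPKM in matrix cells. The skeletal muscle markers reached their highest sum in mural cells. The separation of mural and myeloid cells from matrix RNA was also incomplete. Of the mural cells, 19 of 57 also reached 1000 FPKM of Col1a1, as did 4 of 26 myeloid cells, 2 of these among the 4 myeloid cells of day 15 capture 2. The summed matrix markers of myeloid cells ran from 98.5 FPKM in day 21 capture 2 to 15800 FPKM in day 15 capture 2. These mixed cells enter the comparisons of kinds below, which are also given without them.

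H19 lies on chr7:142575529-142578143 (GRCm38, minus strand), a long non-coding RNA gene near the imprinted growth factor gene Igf2. Cdkn1c, a cyclin-dependent kinase inhibitor, lies nearby on chr7:143458339-143461050 (minus). Peg3, a zinc finger gene, is at chr7:6703892-6730431 (minus), and Ndn, a MAGE-family gene of the region homologous to the Prader-Willi locus, at chr7:62346569-62350262 (plus). Dlk1, a transmembrane protein of the Notch ligand type, is at chr12:109452823-109463336 (plus), followed on the same strand by Meg3, a long non-coding RNA, at chr12:109541001-109571726. Mest, of the alpha/beta hydrolase fold, is at chr6:30723547-30748465 (plus), Plagl1, a zinc finger transcription factor, at chr10:13060504-13131694 (plus), and Grb10, an adaptor that dampens insulin and IGF receptor signalling, at chr11:11930508-12038683 (minus). The values are summed over the transcripts of each gene. The library kit does not mark strand, so reads shared with genes on the other strand cannot be told apart. Copg2 overlaps Mest on the opposite strand and was detected in 43 of 198 matrix cells. Of the 74 matrix cells with Mest, 25 also had Copg2. Gm44732, opposite Cdkn1c, was detected in 2 matrix cells. Gm26906, opposite Meg3, was detected in 24.

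H19, Mest and Meg3 also carry microRNA genes, which these cDNA libraries do not measure as mature RNAs. Those of H19 and Mest are shown to identify them, from RefSeq (GRCm38.p6), with bases 2 to 8, the seed, in capitals.
miR-675-5p (H19, chr7:142577112-142577133, minus): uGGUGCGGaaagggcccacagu
miR-675-3p (H19, chr7:142577078-142577099, minus): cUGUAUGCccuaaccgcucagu
miR-335-5p (Mest, chr6:30741314-30741336, plus): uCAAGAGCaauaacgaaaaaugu
miR-335-3p (Mest, chr6:30741354-30741375, plus): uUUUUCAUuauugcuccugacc
The 4 seeds differ from each other.

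The RefSeq promoter table (GRCm38.p6), whose entries are 300 bases around a start site, held 11 promoters of 7 members, and H19 and Cdkn1c were not matched. The methylation that distinguishes the parental copies falls on CpG dinucleotides, so the CpGs are in capitals. The 4 promoters shown belong to genes that were positively correlated with another member in every capture (below). For Mest, the upstream-most of the pair of start sites with the most CpGs is shown, and for Meg3 the start site at the 5′ end of the gene.
Mest (chr6:30737800-30738099, plus): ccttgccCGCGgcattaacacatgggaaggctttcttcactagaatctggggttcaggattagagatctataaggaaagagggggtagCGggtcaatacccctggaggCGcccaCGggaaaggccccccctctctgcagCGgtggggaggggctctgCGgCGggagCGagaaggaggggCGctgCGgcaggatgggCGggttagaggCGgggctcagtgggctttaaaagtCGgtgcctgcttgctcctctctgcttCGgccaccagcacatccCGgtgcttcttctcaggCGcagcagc
Plagl1 (chr10:13090582-13090881, plus): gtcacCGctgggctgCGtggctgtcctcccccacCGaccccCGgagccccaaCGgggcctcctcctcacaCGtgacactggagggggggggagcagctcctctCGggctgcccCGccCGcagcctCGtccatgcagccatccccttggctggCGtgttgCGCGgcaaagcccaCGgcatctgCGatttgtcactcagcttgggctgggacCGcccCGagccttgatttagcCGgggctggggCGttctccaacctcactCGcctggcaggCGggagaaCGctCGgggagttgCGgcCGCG
Peg3 (chr7:6730370-6730669, minus): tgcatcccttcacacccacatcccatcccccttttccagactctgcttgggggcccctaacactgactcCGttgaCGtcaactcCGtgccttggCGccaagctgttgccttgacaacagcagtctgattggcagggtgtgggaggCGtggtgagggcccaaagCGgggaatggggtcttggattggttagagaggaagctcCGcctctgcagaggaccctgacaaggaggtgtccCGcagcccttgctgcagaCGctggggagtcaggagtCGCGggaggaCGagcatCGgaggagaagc
Meg3 (chr12:109540746-109541045, plus): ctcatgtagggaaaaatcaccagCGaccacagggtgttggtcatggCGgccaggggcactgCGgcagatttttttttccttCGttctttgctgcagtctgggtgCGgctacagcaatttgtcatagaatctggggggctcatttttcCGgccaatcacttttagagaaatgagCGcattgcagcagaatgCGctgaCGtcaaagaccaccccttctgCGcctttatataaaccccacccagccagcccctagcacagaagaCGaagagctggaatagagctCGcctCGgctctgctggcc
They held 17, 26, 13 and 13 CpGs. Over all 32851 promoters of this length the median was 7, and 31.4%, 16.9%, 37.9% and 37.9% held at least as many. The Grb10 promoter richest in CpGs held 45, a number that 1.93% of promoters reached. No methylation was measured here.

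Meg3 had the highest level of the 9 genes in matrix cells, with a mean over captures of 332 ± 202 FPKM (SD, n = 7 captures). It was detected, with a value above 0, in 196 of 198 matrix cells (99%, exact binomial 95% interval 96.4 to 99.9%). Cdkn1c followed at 125 ± 92.7 FPKM and 153 cells (77.3%), then H19 at 104 ± 84.6 FPKM and 87 cells (43.9%). Grb10 stood at 57.3 ± 28.6 FPKM with 179 cells (90.4%), and Mest at 58 ± 74.4 FPKM with 74 cells (37.4%). Plagl1 (27.9 ± 18.3 FPKM, 96 cells), Ndn (13.6 ± 11.1 FPKM, 86 cells) and Peg3 (12.6 ± 7.6 FPKM, 143 cells) were lower. Dlk1 was near the floor at 1.95 ± 3 FPKM, with 13 cells (6.57%). Intervals cover counting error only, and cells of a capture are not independent samples. On the log2 scale, the order of neighbours held in 6 of 7 captures for Meg3 over Cdkn1c and for Plagl1 over Peg3, and in 7 of 7 for Ndn over Dlk1. Between Cdkn1c, H19, Grb10, Mest and Plagl1 each gap to the next (0.46 to 0.63) was smaller than its SD over captures (1.19 to 1.4). The gap between Peg3 and Ndn was 0.17 ± 1.5. These neighbours did not differ beyond their spread.

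A high mean did not imply that most cells had the RNA. H19 was at 0 in most matrix cells, yet 40 cells held 100 FPKM or more and the highest held 1720. The 20 highest of the 198 cells carried 75.5% of all H19 FPKM in matrix cells and 78.2% of Mest FPKM. For Meg3 the same share was 46.1%, for Cdkn1c 48.2% and for Grb10 51.7%. Peg3 showed the reverse pattern: it was detected in 72.2% of matrix cells, but 28.3% reached 10 FPKM. At 10 FPKM or more the shares were 91.4% for Meg3, 64.6% for Cdkn1c, 62.1% for Grb10, 28.8% for H19 and 27.8% for Mest. A value above 0 can be very low in deep cells. In myeloid cells, for example, Meg3 was above 0 in 73.1% and at 10 FPKM or more in 23.1%, with a median depth of 2100000 fragments against 1450000 in matrix cells. A matrix cell held a median of 5 members, from 1 to all 9, which 7 cells held. A mural cell held a median of 4 and a myeloid cell 2.

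The first question is how these genes stood in matrix cells as the wound aged. Mest, linked to the growth of adipose tissue, had a mean of 49.2, 66.1 and 220 FPKM in the day 12 captures, 17.2 and 29.2 FPKM at day 15, and 5.22 and 19.1 FPKM at day 21. Each day 12 capture was above each later one. Reads of Copg2 cannot be told apart from those of Mest where the genes overlap. Copg2 had means of 10.7, 8.57 and 27.5 FPKM at day 12 and of no more than 3.36 FPKM later. In the day 12 captures 2, 3 and 2 cells reached 10 FPKM of Copg2, and the highest cells held 258, 96.4 and 436 FPKM. Copg2 was detected in 29.7%, 11.1% and 25% of the matrix cells of days 12, 15 and 21. At 10 FPKM or more it was in 9.46%, 5.56% and 1.92% of them, and Mest in 41.9%, 22.2% and 15.4%. The part of Copg2 reads in the Mest values was not tested. Cdkn1c read 150, 126 and 320 FPKM at day 12, then 45.6 and 79.3, then 75.5 and 79. Its day 12 captures were again above all later ones, and days 15 and 21 overlapped. Meg3 read 236, 169 and 255 FPKM at day 12, 766 and 378 at day 15, and 225 and 296 at day 21. Both day 15 captures were thus above all others. Meg3 was also highest at day 15 in mural cells, in captures with at least 3 of them. There it read 397 FPKM at day 15, 111 to 226 at day 12 and 194 at day 21. Whether the day 15 level is particular to matrix cells was not tested.

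**Figure D1:**
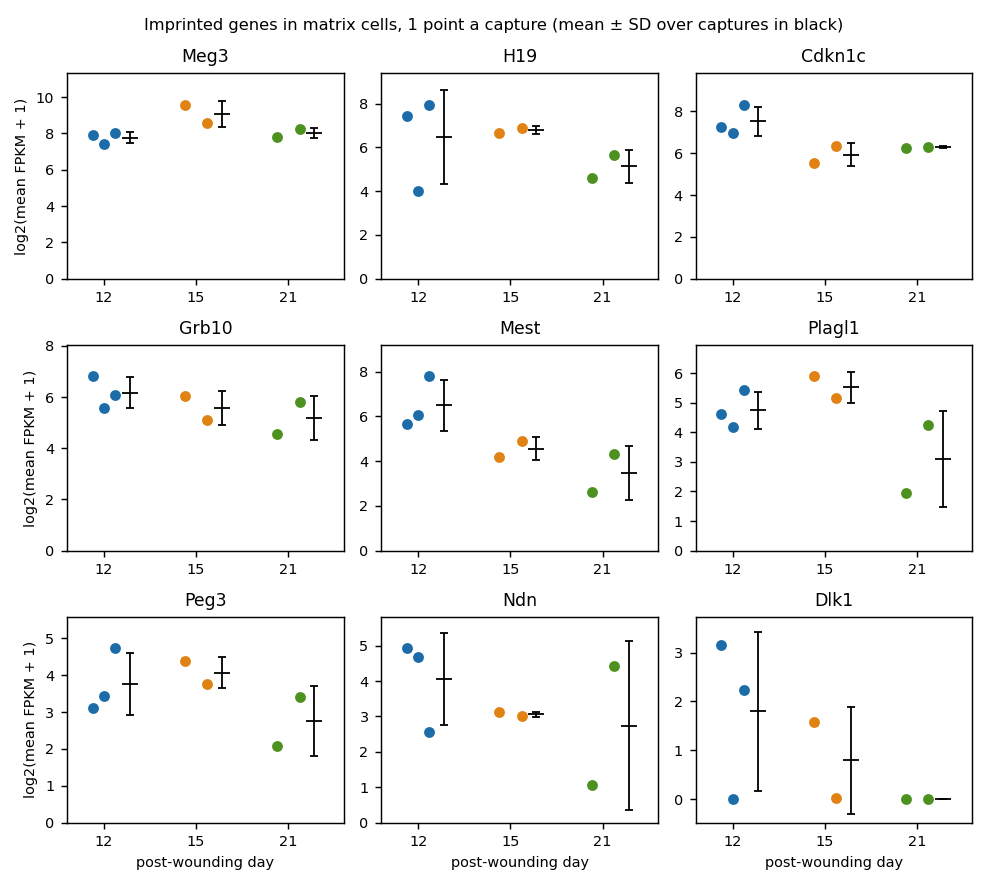
Each point is the log2 of the mean FPKM + 1 of the matrix cells of a capture (vertical axis) at the post-wounding day of the capture (horizontal axis), and black bars give the mean ± SD over captures of a day. Mest and Cdkn1c sit highest in the 3 day 12 captures, Meg3 in the 2 day 15 captures, and the captures of a day differ widely for H19 and Ndn.

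H19 shows why the captures of a day were kept apart. It read 172, 15.2 and 248 FPKM in the 3 day 12 captures, 99.2 and 119 at day 15, and 23.2 and 50 at day 21. Day 12 capture 2 was thus below both day 21 captures. Plagl1 read 23.6, 16.9 and 41.8 FPKM at day 12, 58 and 34.3 at day 15, and 2.82 and 17.8 at day 21. Its day 15 captures were above its day 21 captures. Ndn ranged from 4.95 to 29.4 FPKM at day 12, from 7 to 7.66 at day 15, and from 1.07 to 20.5 at day 21. Grb10 ranged from 47.3 to 111, 33.4 to 65.1 and 22.6 to 54.5 FPKM. Peg3 ranged from 7.7 to 25.5, 12.6 to 19.8 and 3.21 to 9.71 FPKM. The days overlapped for Ndn and Grb10, and for Peg3 both day 15 captures were above both day 21 captures. With 2 captures on each of these days, such a separation, as for Plagl1, is weak evidence of a difference. Dlk1 read 7.92, 0 and 3.72 FPKM at day 12 and 1.97 and 0.0177 at day 15. Dlk1 was detected in 0 of 52 matrix cells of day 21, which by the rule of 3 counts allows a share of cells with a value of up to 5.77% (exact binomial 95% upper limit 6.85%).

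None of these differences passed the adjustment over all genes. With limma on all 7 captures (Benjamini-Hochberg over 13552 genes), no member of 9 had an adjusted p under 0.05 between any pair of days. The background was equally low, with 0% of all genes called between days 12 and 15, 0% between days 15 and 21, and 0.00738% (1 gene) between days 12 and 21. At an unadjusted p under 0.05, 3 members passed between days 12 and 15 (5.84% of all genes), 2 between days 15 and 21 (5.5% of all genes) and 2 between days 12 and 21 (7.14% of all genes). The smallest p was that of Mest from day 12 to day 21, a log2 difference of -3.02 (SE 0.76, limma p = 0.00243, adjusted p = 0.445). From day 12 to day 15 the difference was -1.95 for Mest (adjusted p = 0.799), -1.58 for Cdkn1c (SE 0.5, adjusted p = 0.706) and 1.31 for Meg3 (SE 0.4, adjusted p = 0.685). From day 15 to day 21 it was -2.43 for Plagl1 (SE 0.85, limma adjusted p = 0.787) and -1.06 for Meg3 (adjusted p = 0.866). From day 12 to day 21, 8 of 9 members had a negative difference, with a median of -1.33. Over all genes tested the median was -0.19 and 41% were positive. Of the 25 other imprinted genes tested (below), 11 were positive, with a median of -0.05. The 3 comparisons share captures, so their signs are not independent.

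The share of matrix cells with each RNA gives the same values another reading. H19 was detected in 56.8% of matrix cells at day 12, 44.4% at day 15 and 25% at day 21. Mest was detected in 48.6%, 34.7% and 25%, and Cdkn1c in 89.2%, 69.4% and 71.2%. These shares pool the cells of a day. By capture, H19 was detected in 58.1%, 38.5% and 82.4% at day 12, 52% and 27.3% at day 15, and 11.1% and 32.4% at day 21, and Mest in 38.7%, 50% and 64.7%, then 32% and 40.9%, then 22.2% and 26.5%. For both genes day 15 overlapped day 12, and for H19 also day 21. Peg3 was detected in 75.7%, 86.1% and 48.1% of the pooled cells, and Plagl1 in 37.8%, 61.1% and 46.2%. Day 15 cells were shallower than those of the other days, so each cell was also thinned to 300000 fragments. The shares were then 51.8%, 42.8% and 19.9% for H19, 48%, 30.6% and 22.6% for Mest, and 65.5%, 76.5% and 42.5% for Peg3, in the same order of days. Matrix cells held 6 or more of the 9 members in 54.1% of cases at day 12, 40.3% at day 15 and 23.1% at day 21. By capture, the mean number of members per matrix cell was 5.9, 5.19 and 6.24 at day 12, 5.4 and 4.68 at day 15, and 3.56 and 4.88 at day 21. Days 12 and 15 overlap in this count, as do days 15 and 21.

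The second question is whether the members belong to matrix cells or are shared with the mural and myeloid cells of the same sort. Cdkn1c had the smallest p of the members in both comparisons. In the 5 captures with at least 3 cells of both kinds, mural cells had 27.4, 7.54 and 18.4 FPKM of Cdkn1c at day 12, 10.3 at day 15 and 15.6 at day 21. The matrix cells of the same captures had 150, 126, 320, 45.6 and 75.5 FPKM. Every mural value was below every matrix value. The log2 difference was -2.92 (SE 0.51, limma with capture as a block, adjusted p = 0.0203). Cdkn1c was the single member of 9 called in this comparison, in which 1.71% of all 13823 genes were called. The call rests on the day 12 captures: without capture 1, 2 or 3 of day 12 the adjusted p became 0.0675, 0.0751 or 0.0966, with differences of -3.05, -2.68 and -2.64. With the cells outside the quality limits added, the difference was -1.5 and the adjusted p 0.485.

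**Figure D2:**
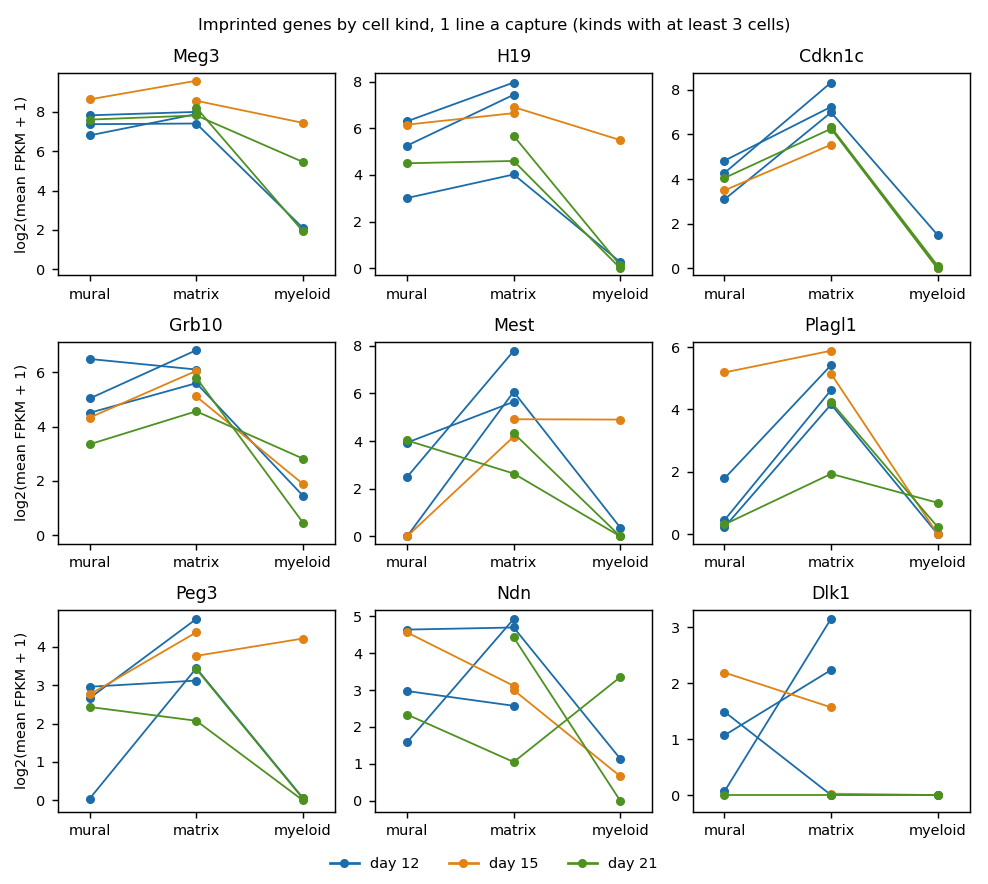
Each line joins the log2 of the mean FPKM + 1 (vertical axis) of mural, matrix and myeloid cells (horizontal axis) of the same capture, for kinds with at least 3 cells, and its colour gives the day. All 5 Cdkn1c lines rise from mural to matrix cells and all 4 fall from matrix to myeloid cells, while the Ndn and Dlk1 lines cross.

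Among the other members, Plagl1 and Mest had the largest differences, with mural values below matrix values in most captures, without passing the test. Plagl1 read 0.366, 0.169 and 2.45 FPKM in mural cells at day 12, 35.4 at day 15 and 0.241 at day 21, and a single cell of 581 FPKM made most of the day 15 mean. It was lower in mural cells in 5 of 5 captures (log2 difference -2.81, SE 0.72, limma adjusted p = 0.0939). Mest was at 0 in all 18 mural cells of day 15 capture 1 and all 7 of day 12 capture 2, and at 14.3 and 4.63 FPKM in the other day 12 captures. At day 21 it was higher in mural cells (15.3 FPKM) than in matrix cells (5.22 FPKM), in the capture whose mural cells held the most matrix marker RNA (20500 FPKM, against 6030 to 8860 in the others). Its difference was -3.17 (SE 1.01, adjusted p = 0.176), and -4.31 (adjusted p = 0.039) without the day 21 capture. H19 (-1.09, limma adjusted p = 0.335), Grb10 (-1.08, adjusted p = 0.362), Peg3 (-1.38, adjusted p = 0.425) and Meg3 (-0.49, adjusted p = 0.483) did not pass. Of these, H19 and Meg3 were lower in mural cells in 5 of 5 captures, and Grb10 and Peg3 in 4 of 5. Ndn (-0.05, SE 0.78) was higher in mural cells in 3 of 5 captures. Dlk1 was detected in 12 of 57 mural cells (21.1%) against 13 of 198 matrix cells (6.57%), but its mean was 1.31 ± 1.48 FPKM (SD, n = 5) in mural and 1.95 ± 3 FPKM in matrix cells, and its difference was -0.43 (SE 0.75). All 9 fitted differences were negative, with a median of -1.09, where the median of all genes was -0.22 and 41.1% of genes were positive.

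The mural cells with little Col1a1 RNA had less Cdkn1c than the rest. In the 38 mural cells under 1000 FPKM of Col1a1, 8 had Cdkn1c (21.1%, mean 2.56 FPKM), and of the 19 at or above it 14 had (73.7%, mean 40.5 FPKM). The other members went both ways. Means were lower under that level for Mest, Peg3 and Meg3. They were higher for H19 (57.1 against 39 FPKM), Ndn (16.6 against 4.79), Plagl1 (15.7 against 4.32), Grb10 (43.1 against 24.2) and Dlk1 (1.96 against 0.97). Except for Dlk1, these genes were detected in a smaller share of the cells under that level. This split was chosen after seeing the data, and Col1a1 also defines the matrix cells. Genes that follow Col1a1 therefore differ more readily in the fit below than its p-values allow for. Against matrix cells, the mural cells under that level differed by -5.29 for Cdkn1c (limma adjusted p = 0.00645), by -4.17 for Mest (adjusted p = 0.0332) and by -2.84 for Peg3 (adjusted p = 0.044), and Plagl1 did not pass (-3.23, adjusted p = 0.0733). These 3 of 9 members stand beside 4.42% of all 13495 genes called in this fit, against 1.71% with all mural cells. The part of matrix RNA in these differences was not tested further.

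In the 4 captures with at least 3 myeloid cells, Cdkn1c read 1.82 FPKM at day 12 capture 2, 0 at day 15 capture 2, and 0 and 0.0867 at day 21. Matrix cells of these captures read 126, 79.3, 75.5 and 79 FPKM. The log2 difference was -6.07 (SE 0.97, limma with capture as a block, adjusted p = 0.00835). Plagl1 read 0, 0, 1.01 and 0.173 FPKM against 16.9, 34.3, 2.82 and 17.8 (-3.56, SE 0.95, adjusted p = 0.0479). These were 2 of the 8 members tested, and 6.59% of all 13059 genes were called, with a median difference of -1 over all genes. Dlk1 was not tested, as it was detected in 0 of 26 myeloid cells (a share of up to 11.5% by the rule of 3 counts, exact binomial 95% upper limit 13.2%). The Plagl1 call was lost whichever of the 4 captures was left out (adjusted p 0.0613 to 0.13), whereas that of Cdkn1c remained in each case (0.0207 to 0.0456).

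For 4 further members the myeloid value of a single capture stood apart. In day 15 capture 2, the 4 myeloid cells held means of 44 FPKM of H19, 28.9 of Mest, 17.6 of Peg3 and 173 of Meg3. In the other 3 captures these genes read at most 0.198, 0.292, 0.0436 and 42.9 FPKM. That capture also held the most matrix RNA in its myeloid cells (above). The differences from matrix cells were -3.83 for H19 (adjusted p = 0.0536), -3.77 for Meg3 (adjusted p = 0.0551), -3.6 for Grb10 (adjusted p = 0.059), -3.17 for Mest (adjusted p = 0.0975), -2.1 for Peg3 (adjusted p = 0.177) and -2 for Ndn (adjusted p = 0.279). In a further fit the 4 myeloid cells of 1000 FPKM or more of Col1a1 were left out. This was again a choice made after seeing the data, and on a gene that defines the matrix cells. Day 15 capture 2 then had too few cells and dropped out. The limma adjusted p was then 0.0241 for H19, 0.0196 for Meg3, 0.023 for Grb10 and 0.033 for Mest, with differences of -4.65, -6.93, -5.08 and -4.21. Peg3 and Ndn did not pass in this or any other alternative fit (limma, lowest adjusted p 0.0651 and 0.111). In the fit without these cells 10.6% of all 12879 genes were called, against 6.59% with all myeloid cells.

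**Figure D3:**
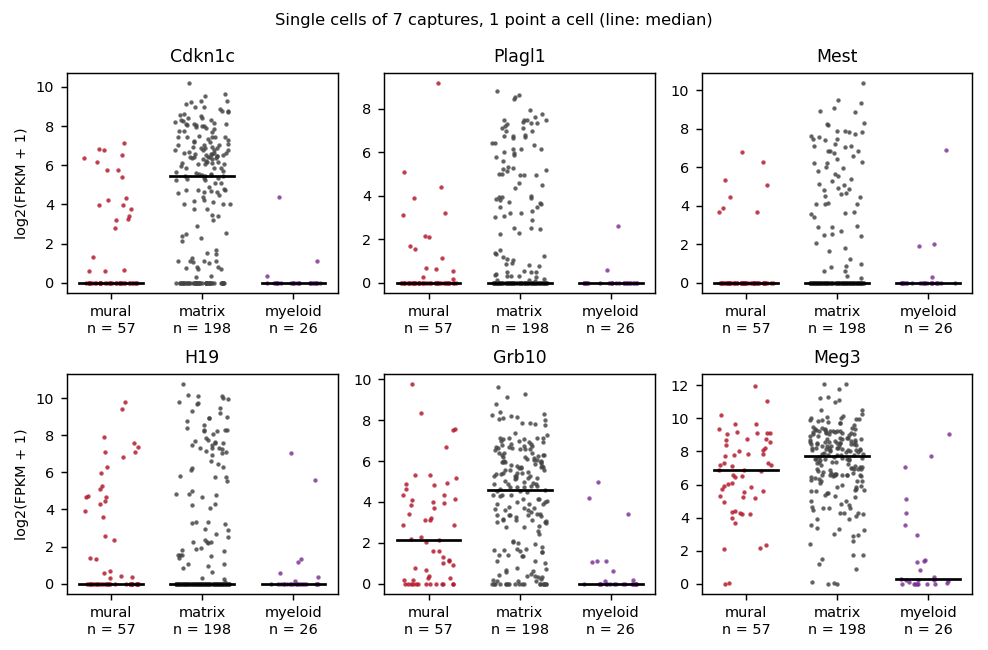
Each point is a kept cell, with log2 of FPKM + 1 on the vertical axis and its kind on the horizontal axis, and the line is the median over the cells of a kind. Most matrix cells hold Cdkn1c, Grb10 and Meg3, whereas H19, Mest and Plagl1 have medians of 0 and a set of cells far above them.

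The third question is whether the same matrix cells held the members. Spearman's rho was computed within each capture, so that differences between captures could not enter, and averaged over the 7 captures. Over the 36 pairs the mean rho ran from -0.17 to 0.3, with a median of 0.15, and 35 of 36 were positive. With the number of detected genes held constant, the median was 0.14. For comparison, the median rho of each member with all other genes lay between 0 and 0.04. These are weak correlations in sparse values and are given as descriptions. Among pairs measured in all captures, H19 with Mest was as high as any (0.27, from 0.11 to 0.47, positive in 7 of 7 captures). Both were detected in 46 cells, which is 52.9% of the cells with H19 and 62.2% of those with Mest, where the product of their shares within each capture, summed over captures, would give 35.2 cells. Peg3 with Meg3 (0.27) and Mest with Plagl1 (0.19) were also positive in 7 of 7 captures. Cdkn1c was related to Mest (0.22, positive in 6 of 7) but hardly to Peg3 (0.05) or Plagl1 (0.04). Dlk1 could be followed in 4 captures. All 13 matrix cells with Dlk1 also had Peg3 and Meg3, which 72.2% and 99% of all matrix cells had. Of the 13 cells, 11 had Plagl1, which 48.5% of matrix cells had. The products of shares within captures would give 10.4 cells for Peg3, 13 for Meg3 and 6.75 for Plagl1.

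**Figure D4:**
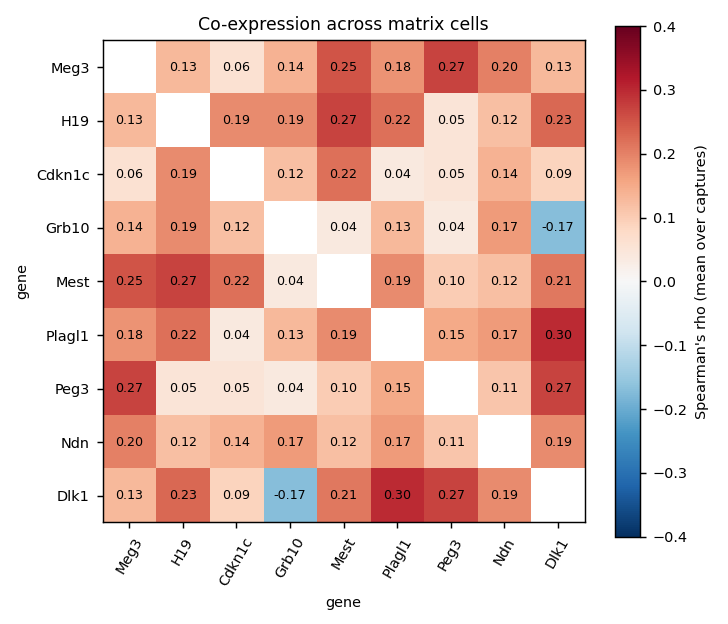
Each cell of the grid gives Spearman's rho between the genes of its row and column across matrix cells, computed within each capture and averaged over the captures that measured both (4 for Dlk1, 7 otherwise), in red where positive. The values are low throughout, and H19 with Mest and Plagl1 with Dlk1 are among the highest at 0.27 and 0.3.

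Against fibroblast markers, Mest was negatively related to Crabp1, a retinoic acid binding protein gene, in 7 of 7 captures (mean rho -0.33, from -0.58 to -0.16). It was positively related to Col14a1 in 6 of 7 (0.21), and Cdkn1c was positively related to Col14a1 in 7 of 7 (0.22, from 0.15 to 0.3). Meg3 was negatively related to the proliferation marker Mki67 in all 6 captures that had it (-0.25) and to Dcn in 7 of 7 (-0.17). Cdkn1c, the cell cycle inhibitor, had a rho of -0.09 with Mki67 and -0.02 with Top2a. No member was related in the same direction in every capture to Acta2 or to Tagln, whose promoter drives the Cre.

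The genes whose pattern across matrix cells was most like a member, among 9420 detected in at least 20% of them, were as follows. For Mest they were Col8a2 (0.46), Ptn (0.43) and Angptl1 (0.42), each positive in 7 of 7 captures. For H19 they were Adamtsl1 (0.4), Sertad4 (0.39) and Ptn (0.38), so that Ptn, the gene of the secreted growth factor pleiotrophin, appears for both. For Cdkn1c they were Mdk, the gene of the related factor midkine, Igf1 and C1ra (0.37 each). Meg3 was most like Gm37376 (0.4), Spon1 (0.34) and Gm47164 (0.32), and Grb10 most like Fat4 (0.34), Rcn1 (0.3) and Uimc1 (0.3). For Plagl1 they were Parn (0.33), C1qtnf3 (0.33) and Zcchc7 (0.3), for Ndn Ecm1 (0.34), Ccdc84 (0.32) and Dcaf6 (0.3), and for Peg3 Aptx (0.33), Map2k1 (0.31) and Apoc4 (0.3). No member was among the 3 genes most like another. Dlk1 was too rare for this search.

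Of 40 other imprinted genes looked up beside the members, 25 passed the filter in matrix cells and none was called between days (limma, 2, 1 and 5 at an unadjusted p under 0.05 from day 12 to 15, 15 to 21 and 12 to 21). Igf2, the paternally expressed neighbour of H19, was detected in 11 of 74 matrix cells at day 12, 1 of 72 at day 15 and 0 of 52 at day 21. Its mean was 24.3, 2.75 and 27.2 FPKM in the day 12 captures, and no more than 0.0462 FPKM later. A single cell of 733 FPKM made most of the mean of day 12 capture 1. The difference from day 12 to day 15 was -3.76 (SE 1.05, limma adjusted p = 0.644). Of the 12 matrix cells with Igf2, 6 had H19. Igf2r, the maternally expressed receptor that clears IGF2, was detected in 97% of matrix cells, and differed by -1.34 from day 12 to day 21 (adjusted p = 0.696). Between kinds, 1 of 22 was called lower in mural cells, Dcn (-2.11, SE 0.25, limma adjusted p = 0.0023), where 1.71% of all genes were called in either direction. Dcn is itself abundant in matrix fibroblasts, the cells gated on Col1a1. In myeloid cells 3 of 20 were called, all lower, beside 6.59% of all genes: Sgce (-6.44, adjusted p = 0.00465), Dcn (-4.47, adjusted p = 0.0258) and Rian (-4.69, adjusted p = 0.0301). Rian, a maternal RNA downstream of Meg3, had 427 ± 115 FPKM in matrix cells (SD, n = 7) and 394 ± 137 FPKM in mural cells (n = 5). Of the 196 matrix cells with Meg3, 186 also had Rian (94.9%), the same share as among all matrix cells (188 of 198, 94.9%).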

How the data were processed

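Single tdTomato-high cells of wound dermis were profiled in 7 captures (367 cells). The authors aligned the reads with Bowtie 1.0.0 to mm10 and quantified genes with RSEM, and deposited FPKM values per cell without counts. The labels of day 12 capture 3 name the matrix of capture 2, and its values were read from the matrix with its own day and number, which holds its 40 cells. Depth per cell was therefore estimated from the step between low FPKM values in 9420 genes with a single transcript of at least 1000 bases, at an assumed fragment length of 300 bases. Cells with at least 159000 fragments, at most 11000 genes and at most 15% mitochondrial RNA were kept. Gene identifiers were matched to symbols by GENCODE release 21 (the authors used release 13), and 224 of 50600 had no record.

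The mean FPKM over the cells of a kind in a capture was the unit of comparison, with the capture as replicate. log2(mean FPKM + 1) was tested with limma 3.58.1 (R 4.3.3) with a variance trend, for genes averaging 1 FPKM or more, with Benjamini-Hochberg adjustment over all genes tested. Fold changes are on this scale, which understates the change of low genes. Days were compared in matrix cells, and kinds within captures holding at least 3 cells of both, with capture as a block. Kinds were gated on genes measured in the same cells, so genes that follow the gate genes differ more readily than the p-values allow. Spearman's rho was computed within captures of at least 10 matrix cells. Scripts were tested on simulated data.

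The genes named are the 9 members, Igf2 and Igf2r, other imprinted genes with an adjusted p under 0.05, the 3 genes most like each member, and the markers and overlapping genes a result touches. The members and the lists were chosen with earlier results of these data known. Alternatives were pseudocounts of 0.1 and 10, no filter, TPM scaling, the mean of log2 values over cells, stricter gates, all cells, no variance trend, a replicate block and leaving out each capture. Leaving out mural and myeloid cells with 1000 FPKM or more of Col1a1, and thinning to 300000 fragments, were chosen after seeing the data.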

Additional observations from a re-analysis of the deposited data

Results flagged for a closer look

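In groups of 4 or 5 captures, the highest or lowest capture was set against the others by Dixon's criterion, which chance meets in about 1 of 20 groups. Of 18 groups tested, 2 met it. The difference in Cdkn1c between myeloid and matrix cells was -5.49 on the log2 scale in day 12 capture 2, where the other 3 captures were lower, down to -6.33. For Dlk1 the same difference was -0.03 in day 15 capture 2 and 0 in the other 3 captures, in which neither kind had Dlk1.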

How the results depend on the processing

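No member passed an adjusted p of 0.05 between days in any of the 17 fits of each pair of days (lowest 0.222 from day 12 to 15, 0.319 from 15 to 21 and 0.113 from 12 to 21). The single gene called between days 12 and 21 fell to 0 with a pseudocount of 0.1, no filter, TPM scaling, stricter gates, the replicate block and each capture left out (0 to 0). A pseudocount of 10 called 1 gene between days 15 and 21, and the mean of log2 values called 28 from day 12 to 15 and 70 from day 12 to 21. The 236 genes called between mural and matrix cells became 19 without a filter, 657 with the mean of log2 values, 90 without a variance trend, 596 without cells rich in Col1a1, and 102 to 228 with a capture left out. The 861 called in myeloid cells became 183 with a pseudocount of 10, 31 without a filter, 1365 with TPM scaling, 485 with all cells, 1360 without cells rich in Col1a1 and 108 to 340 with a capture left out. TPM scaling moved the median of all genes in that comparison from -1 to -1.2. The cause of these shifts was not tested.

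Cdkn1c had an adjusted p under 0.05 in 9 of 15 alternatives in mural cells (0.00154 to 0.485) and in 13 of 14 in myeloid cells (0.00128 to 0.0592). Plagl1 in myeloid cells had one in 5 of 14 (0.0246 to 0.25). The sign changed, with no call, for 3 members with the mean of log2 values or a pseudocount of 10: Ndn from day 15 to 21 (0.08 with the pseudocount, 0.17 with the mean), H19 from day 12 to 15 (-0.98) and Meg3 from day 12 to 21 (-0.1). H19 also changed to -0.05 with stricter gates. In mural cells Dlk1 became 0.11 with the mean of log2 values, and H19 0.47 with all cells. Over the fits that leave out a capture, values crossed 0 for H19 (-0.92 to 1.05) and Peg3 (-0.01 to 0.79) from day 12 to 15, Cdkn1c (-0.04 to 0.75), Grb10 (-1.01 to 0.22, and 0.07 without day 15 capture 1) and Ndn (-2.01 to 1.37) from day 15 to 21, Ndn from day 12 to 21 (-3.01 to 0.36), and Ndn (-0.43 to 0.77) and Dlk1 (-0.91 to 0.24) in mural cells.

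The replicate numbers did not pair the captures: correlations of their deviations lay between -0.03 and 0.03, and the replicate block left 0 calls between days 12 and 21. Without the capture block, Grb10 in myeloid cells had an adjusted p of 0.0256. The median share of matrix cells with a member was 48.5%, and 28.8% at 10 FPKM or more. The median co-expression was 0.15, and 0.14 to 0.16 with a capture left out. With 2 or 3 captures a day and as few as 3 myeloid cells in a capture, small differences were not detectable.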

Other observations

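Outside the members, Snrpn, a paternally expressed gene of the same imprinted region as Ndn, was singled out after its values were seen. It was detected in 14 of 57 mural cells and 4 of 198 matrix cells. Of the mural cells with it, 13 were among the 30 of day 12 and 1 among the 19 of day 15, and it was detected in 0 of 8 at day 21. Over the 5 captures its difference between mural and matrix cells was 2.35 on the log2 scale (SE 0.87, limma adjusted p = 0.25). Matrix cells with Mki67 and Top2a at 10 FPKM or more, also chosen after the data were seen, numbered 9. Cdkn1c, an inhibitor of the cell cycle, was detected in 7 of these 9 and in 146 of the other 189 matrix cells. The mean of Meg3 was 146 FPKM in the 9 cells and 399 FPKM in the rest, and Mest was detected in 2 of the 9. These cells are not independent samples, and no test was made.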
